A study of Mus musculus with 4 samples.

Results

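The semaphorins, their plexin receptors and the neuropilin co-receptors were examined in sorted mouse β cells as 31 genes, 20 semaphorins, 9 plexins and 2 neuropilins, chosen by gene symbol from the 51912 genes of the deposited RNA sequencing table. The study compared β cells of neonates at day 13 that had intact or mutant Robo1 and Robo2, the genes of 2 Roundabout receptors, and its title asks whether β cells need these receptors for islet cells to sort and islets to take their mature architecture. The 2 control libraries carried Rosa26-lsl-H2B-mCherry/+, Ucn3-Cre/+, Robo1+/+ and Robo2+/+. The 2 Robo mutant libraries carried the same heterozygous reporter and Cre with Robo1delta/delta and Robo2flx/flx. The nuclear mCherry reporter, by which cells were sorted from dissociated islets, and the deletion of Robo2 both depend on a Cre expressed from Ucn3, which β cells switch on as they mature, whereas the Robo1 allele is labelled as deleted and not as conditional. The labels do not say whether libraries came from separate or pooled animals. The p-values therefore describe the spread of these libraries alone, and that spread may be technical.

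Semaphorins are secreted, membrane-spanning or lipid-anchored ligands that steer growing axons and migrating cells, mostly by repulsion, and that also act between neighbouring epithelial, vascular and immune cells. They bind plexins, whose intracellular domain switches off Rap and R-Ras GTPases and, in class B plexins, activates RhoA through the exchange factors encoded by Arhgef11 and Arhgef12. Most secreted class 3 semaphorins need a neuropilin as the binding partner of a class A plexin, while transmembrane semaphorins bind plexins directly. Like Slit ligands and Robo receptors they belong to the classical axon guidance systems, and semaphorin signals through neuropilin have been described in the placement of islet cells during pancreas development.

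Library totals ran from 38886129 to 49593712 counts. Robo1 stood at 48.5 and 104 CPM (counts scaled to library size, with TMM factors) in control 1 and control 2 and at 22.3 and 21.02 CPM in Robo mutant 1 and Robo mutant 2, and Robo2 at 75.3 and 118 CPM against 32.7 and 25.6 CPM. The log2 changes were -1.82 for Robo1 and -1.73 for Robo2. Neither passed edgeR's quasi-likelihood test, each with an adjusted p of 0.680, while DESeq2 gave adjusted p of 0.00186 and 1.99e-05. A change of this size can thus fail the edgeR test used below. All 10 β-cell markers checked were present in every library. They summed to 231397 and 197648 CPM in the controls and to 227525 and 160290 CPM in the mutants. Transcripts of other cells were also present and differed between libraries. The 7 α-cell markers summed to 23940.1 and 12026.5 CPM in the controls and to 19392.5 and 24291.2 CPM in the mutants. The 4 δ-cell markers summed to 1063 and 981 CPM in the controls and to 2506 and 1289 CPM in the mutants. The 2 PP-cell markers summed to 6407 and 4315 CPM against 7134 and 4995 CPM. The 11 acinar markers summed to 4696 and 491 CPM in the controls and to 2251 and 43116 CPM in the mutants. The 11 stromal and pericyte markers summed to 2424 and 709 CPM in the controls and to 1100 and 14.7 CPM in the mutants, with 5 of them at 0 in Robo mutant 2. The 12 endothelial markers summed to 8.001 and 20.2 CPM in the controls and to 5.88 and 6.29 CPM in the mutants. Kdr, the VEGF receptor gene, was at 0 in all but control 2. The 11 immune markers summed to 68.04 and 35.8 CPM in the controls and to 84.7 and 83.8 CPM in the mutants. The part of these cells in the values below was not tested. In such bulk samples fewer cells of a type and less RNA per cell cannot be told apart.

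The leading receptor gene and the leading ligand gene by level were Plxnb2 and Sema4d, and stretches of their promoters are shown because the results below turn on these genes. The stretches lie before an annotated transcript start and outside annotated exons (RefSeq, GRCm38.p6, both on the minus strand, written 5′ to 3′ along the gene, with the dinucleotide CG in capitals). The Plxnb2 stretch reaches to 1 base from its start. The Sema4d stretch stops 110 bases from its start, since nearer bases overlap an annotated exon. The Sema4d start, at 51748810, lies inside the gene, whose 5′ end is annotated at 51793747. Plxnb2 is read from chr15:89180789-89181038 and Sema4d from chr13:51748920-51749060.
Plxnb2: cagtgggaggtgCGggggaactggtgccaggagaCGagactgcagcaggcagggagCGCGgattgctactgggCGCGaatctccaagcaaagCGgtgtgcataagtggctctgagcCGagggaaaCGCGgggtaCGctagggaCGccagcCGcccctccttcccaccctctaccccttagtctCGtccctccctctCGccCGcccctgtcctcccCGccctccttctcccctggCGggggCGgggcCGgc
Sema4d: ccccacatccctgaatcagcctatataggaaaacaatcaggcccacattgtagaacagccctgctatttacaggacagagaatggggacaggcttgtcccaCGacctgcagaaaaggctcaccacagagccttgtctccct

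The Plxnb2 stretch of 250 bases held 20 CG dinucleotides and was 69.2% G and C. The Sema4d stretch of 141 bases held 1 and was 51.8% G and C. The stretches differ in length and in distance from the start, so these values are not like for like. RefSeq listed a start for 26 of the 31 genes. Taking for each gene the start with the most CG in the 250 bases before it, the median was 16.5 in these 26 genes, from 2 to 39, against 6 over the 27025 genes of the table, coding or not. Abundant and scarce members stood at both ends, with 39 before the start of Sema3c and 2 before those of Sema4d and Sema3a. The listed starts of Sema3c, Sema4d and Sema3a lie inside the annotated genes and not at their 5′ ends. The letters TATAAA, sought on the gene's strand in the last 50 bases before each of the 37 listed starts of members, were found in 0 of them and in 2.63% of all listed promoters. Gene-level counts do not tell which start was used.

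Plxnb2 was by far the most abundant member. Between genes, levels are compared as CPM per kilobase of exon, since longer genes collect more reads. On that scale Plxnb2 (ENSMUSG00000036606, chromosome 15, 89155549 to 89180788, minus strand, GRCm38), the gene of the class B plexin that receives class 4 semaphorins, stood at 53.4 and 53.8 in the controls and at 50.3 and 55.2 in the mutants. It made up 85.4% to 87.8% of the summed plexin level in each library, and 95.9% of tested genes had a level at or below it. The next plexin, Plxnb1, reached a mean of 3.73 per kilobase, followed by the class A plexins Plxna2 at 1.62 and Plxna3 at 1.56.

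**Figure D1:**
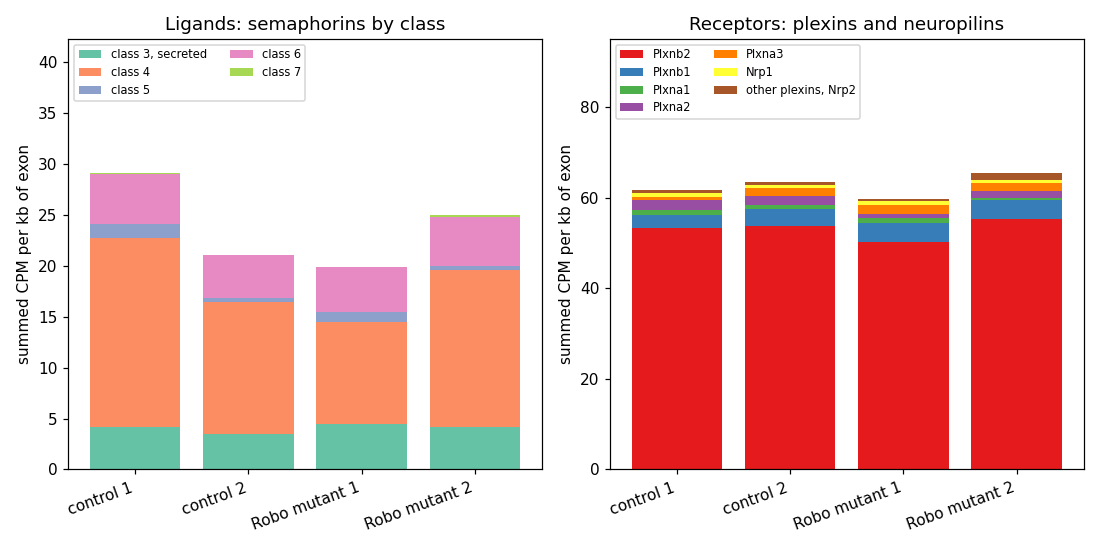
Summed level per kilobase of exon in each of the 4 libraries, stacked by semaphorin class (left) and by receptor gene (right). Class 4 semaphorins made up most of the ligand level, and Plxnb2 stood between 50.3 and 55.2 CPM per kilobase in every library.

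Plxnb2 differed little between genotypes. Its CPM was 412 and 416 in control 1 and control 2 and 388 and 426 in Robo mutant 1 and Robo mutant 2. The mutant libraries lay on both sides of the controls. The fitted log2 change was -0.02 (standard error, SE, 0.13), and the 95% interval of the fold change ran from 0.768 to 1.26 (edgeR quasi-likelihood test, n = 2 each, adjusted p = 1). Among the 31 genes it had the smallest standard error. The fitted change was 0.043 without Robo mutant 1.

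Plxnb1 and Plxna3 were higher in both mutant libraries, and Plxna2 was lower, without passing the test. Plxnb1 (chromosome 9, 109095389 to 109119917, plus strand), the classical receptor of Sema4d, was at 25.6 and 35.5 CPM in the controls and at 40.1 and 41.9 CPM in the mutants. Both mutant values lay above both control values, and the controls differed more from each other than the higher control did from the mutants. Its log2 change was 0.42 (SE 0.22, 95% interval of the fold 0.896 to 2.00), with an unadjusted p of 0.117 and an adjusted p of 0.908 in edgeR's quasi-likelihood test.

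Plxna2 (chromosome 1, 194618218 to 194816869, plus strand), a class A plexin gene whose product binds class 6 semaphorins, was at 38.4 and 33.0 CPM in the controls and at 13.5 and 26.7 CPM in the mutants. Both mutant libraries lay below both controls, and they differed from each other more than the controls did. Its mean was 1.78-fold lower in the mutant, and its log2 change of -0.83 (SE 0.38) had an unadjusted p of 0.0834 and an adjusted p of 0.881 (edgeR). It ranged from -1.41 without Robo mutant 2 to -0.42 without Robo mutant 1. Plxna3, an X-linked class A plexin gene that serves Sema3 signalling with neuropilin 2, was at 5.60 and 13.5 CPM in the controls and at 16.2 and 13.8 CPM in the mutants. The gap came from control 1, since control 2 lay just below Robo mutant 2, and the log2 change was 0.65 (SE 0.50) with all libraries and 0.15 without control 1. Y-linked Ddx3y was present in every library, and the transcript Xist of the inactive X chromosome had at most 1 count in each.

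The remaining plexin genes were scarcer or overlapped between genotypes. Plxna1, a further class A plexin gene, was at 10.3 and 7.80 CPM in the controls and at 10.3 and 4.16 CPM in the mutants. Plxnd1, the gene of the plexin that binds Sema3e without neuropilin and is best known from blood vessels, stood at 2.23 and 0.712 CPM in the controls and 1.00 and 0.374 CPM in the mutants. Plxnc1, the gene of the Sema7a receptor, had its highest value, 4.68 CPM, in Robo mutant 2, against 0.810 to 1.65 CPM elsewhere. Acinar transcripts were most abundant in Robo mutant 2 as well, and their part in the Plxnc1 value was not tested. Plxna4 and Plxnb3 had a mean below 1 CPM and were at 0 counts in 2 libraries and 1 library respectively, a count that allows up to 3 counts in that library.

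**Figure D2:**
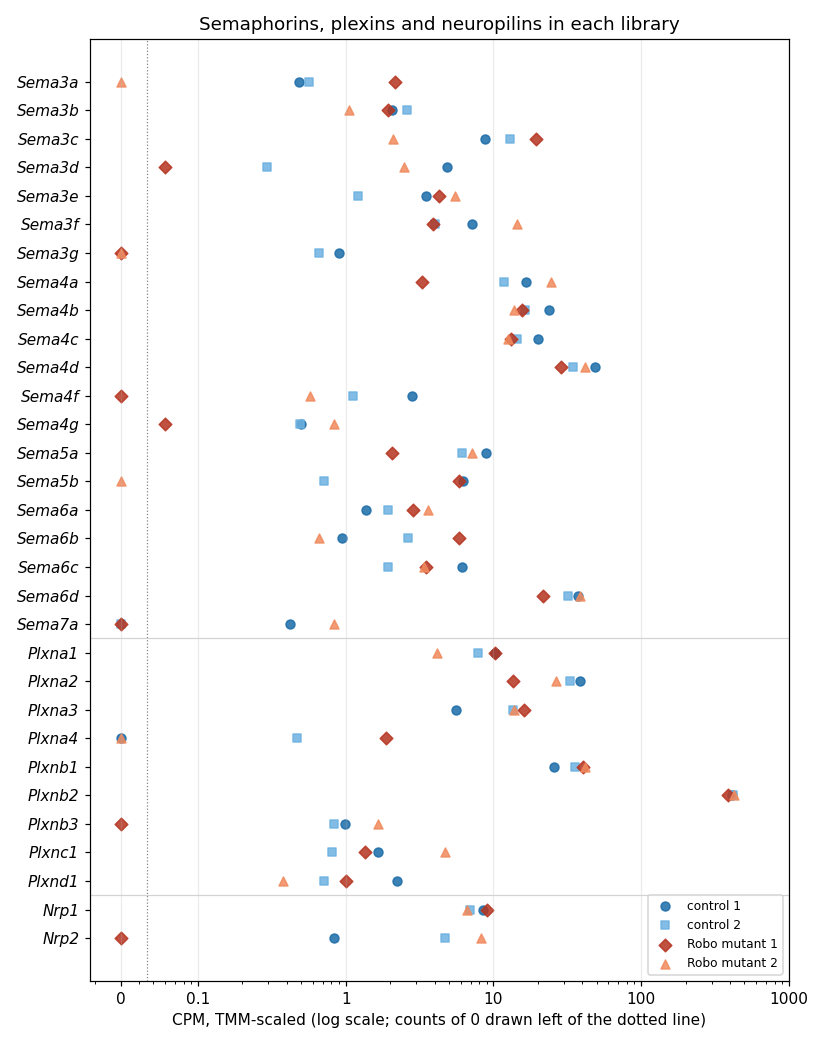
CPM of each of the 31 genes in the 4 libraries on a log axis, with counts of 0 drawn left of the dotted line. Plxnb2 lies near 400 CPM in all libraries, while scarce genes such as Nrp2, Sema5b and Sema3d spread widely among libraries of the same genotype.

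Among the ligands, class 4 transmembrane semaphorins dominated. Sema4d, whose product is best known as a ligand of plexin B1 and as the lymphocyte antigen CD100, led with a mean of 5.0 CPM per kilobase. Sema4c and Sema4b, 2 further class 4 genes of which the first encodes a ligand of plexin B2, followed at 3.28 and 3.07, and Sema6d, a class 6 gene, was at 3.06. The neighbours from Sema4c to Sema6d in this order did not differ beyond their spread. Together the class 4 genes summed to 18.5 and 13.0 CPM per kilobase in the controls and to 10.0 and 15.4 in the mutants, so the genotypes overlapped.

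Sema4b and Sema4c lay below both controls in both mutant libraries, and Sema4d overlapped. Sema4b stood at 23.8 and 16.2 CPM in the controls and at 15.6 and 13.8 CPM in the mutants. Sema4c stood at 19.95 and 14.4 CPM in the controls and at 13.2 and 12.6 CPM in the mutants. In both genes control 1 was the high library, and control 2 lay just above Robo mutant 1. The log2 changes were -0.44 for Sema4b (SE 0.29) and -0.41 for Sema4c (SE 0.28), with adjusted p of 0.949 and 0.954 in edgeR. Without control 1 they were -0.14 and -0.16.

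Sema4d was at 48.4 and 34.6 CPM in the controls and at 28.7 and 41.8 CPM in the mutants. The log2 change was -0.24 (SE 0.28, 95% interval of the fold 0.506 to 1.43), and 0.028 without control 1. Sema4a, the gene of a class 4 ligand known from retina and T cells, separated the mutant libraries from each other. It stood at 16.6 and 11.8 CPM in the controls, 3.30 CPM in Robo mutant 1 and 24.7 CPM in Robo mutant 2. Its fitted change of -0.02 is the average of a low and a high library, at -2.10 without Robo mutant 2 and 0.80 without Robo mutant 1. Acinar markers were at their highest in Robo mutant 2 as well, and their part in this value was not tested. Sema4f had 134 and 46 counts in the controls and 0 and 26 in the mutants, a log2 change of -2.77 (SE 2.09). Sema4g did not exceed 0.836 CPM in any library. All 6 class 4 genes had a fitted change below 0, of which 0 passed the test in edgeR. Over all tested genes 48.7% had a change above 0. With 1 library left out, Sema4a, Sema4d and Sema4g turned above 0, to at most 0.80, 0.028 and 0.75.

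Secreted class 3 semaphorins were present at low levels, and several differed most between libraries of 1 genotype. Sema3c, the most abundant of them per kilobase, encodes a ligand that acts through neuropilins and plexins in vessel and heart development. It was at 8.80 and 13.0 CPM in the controls, 19.4 CPM in Robo mutant 1 and 2.09 CPM in Robo mutant 2. The stromal markers summed to 2424 and 709 CPM in the controls, 1100 CPM in Robo mutant 1 and 14.7 CPM in Robo mutant 2. The δ-cell markers summed to 1063 and 981 CPM in the controls, 2506 CPM in Robo mutant 1 and 1289 CPM in Robo mutant 2. Most of that sum was Sst, at 2145 CPM in Robo mutant 1 and 803 CPM in Robo mutant 2. Sst and Hhex were highest in Robo mutant 1, while Rbp4 and Ghsr were highest in Robo mutant 2. The part of either list in the Sema3c values was not tested. The fitted log2 change of Sema3c was -0.02 (SE 1.03), moving to -2.38 without Robo mutant 1 and 0.83 without Robo mutant 2.

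Sema3f, a ligand gene of neuropilin 2, was at 7.17 and 4.05 CPM in the controls and at 3.90 and 14.5 CPM in the mutants. Sema3e, whose product binds plexin D1, was higher in both mutant libraries, at 4.28 and 5.52 CPM against 3.49 and 1.202 CPM in the controls. The log2 change of Sema3e was 1.06 (SE 0.73, adjusted p = 0.955 in edgeR). Its receptor gene Plxnd1 had a log2 change of -1.10 (SE 1.09). Sema3b, also a neuropilin ligand gene, was lower in both mutants, at 1.92 and 1.06 CPM against 2.07 and 2.60 CPM, with a log2 change of -0.65 (SE 0.75).

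Sema3g, a class 3 gene known from endothelium, was the only 1 of the 31 with an unadjusted p under 0.05 in edgeR. Its counts were 43 and 27 in the controls and 0 in both mutants. Taking 3 counts per library as the floor gave a bound of 12.4-fold lower. That bound leaves out the spread between libraries, and the 95% interval of the fold change reached up to 0.103. The unadjusted p was 0.0112 and the adjusted p 0.680, and DESeq2 gave an adjusted p of 0.279. It entered the test only through its control counts, so such a difference was built into its selection. Of all tested genes 1.84% were at 0 in both mutant libraries. Endothelial markers were scarce, with sums of 8.001 and 20.2 CPM in the controls and 5.88 and 6.29 CPM in the mutants. Both mutant sums thus lay below both control sums, as for Sema3g. The part of endothelial cells in the Sema3g counts was not tested. Sema3a, the classical growth cone collapsing ligand gene, had 23 and 23 counts in the controls, 108 in Robo mutant 1 and 0 in Robo mutant 2. Sema3d ran from 3 counts in Robo mutant 1 to 231 in control 1.

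Of the other transmembrane ligands, Sema6d was at 37.4 and 31.9 CPM in the controls and at 21.5 and 38.4 CPM in the mutants, with a log2 change of -0.21 (SE 0.33). Sema6a, whose product binds plexins A2 and A4, was higher in both mutant libraries, at 2.86 and 3.61 CPM against 1.38 and 1.94 CPM. The log2 change of Sema6a was 0.96 (SE 0.65), with an adjusted p of 0.953 in edgeR. The genotypes overlapped in Sema6b and Sema6c, and Sema6b was highest in Robo mutant 1, at 5.82 CPM, and lowest in Robo mutant 2, at 0.660 CPM. Among class 5 genes, Sema5b stood at 6.23 and 0.712 CPM in the controls and at 5.86 and 0 CPM in the mutants, and Sema5a at 8.84 and 6.13 CPM against 2.06 and 7.13 CPM. Sema7a, the lipid-anchored member, had 20 counts in control 1, 38 in Robo mutant 2 and 0 in the others.

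The neuropilins differed from each other in how steady they were. Nrp1, which encodes the co-receptor of Sema3a and of VEGF, stood at 8.50 and 6.94 CPM in the controls and at 8.98 and 6.66 CPM in the mutants. The genotypes overlapped fully, and the log2 change was 0.02 (SE 0.37, 95% interval of the fold 0.511 to 2.01), or -0.21 without Robo mutant 1. Nrp2, the co-receptor gene for Sema3f and Sema3c, had 40 and 191 counts in the controls, 0 in Robo mutant 1 and 374 in Robo mutant 2. Its lowest and highest libraries were thus both mutant, and its log2 change was 0.57 (SE 2.39). Per kilobase, Nrp1 held 49.5% to 100% of the neuropilin level and averaged 0.794, below Plxna1 at 0.898 in the order of all members.

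**Figure D3:**
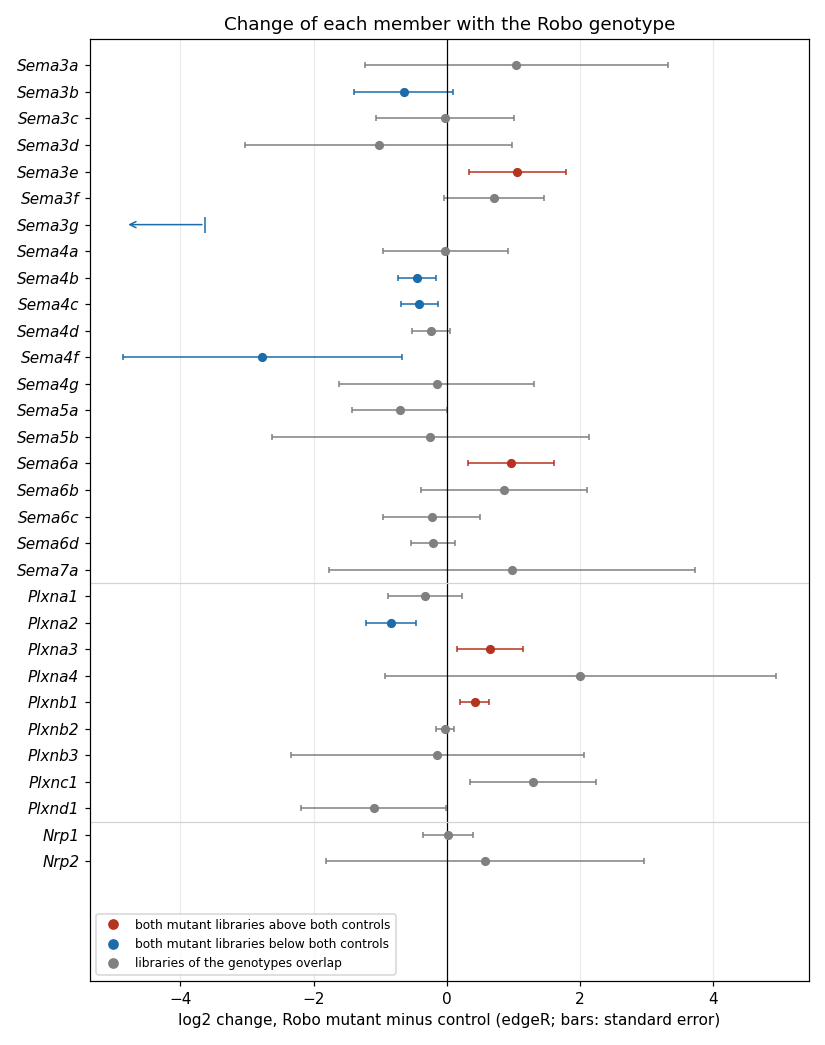
Fitted log2 change (Robo mutant minus control, points) with its standard error (bars) for each gene, coloured by whether both mutant libraries lie above or below both controls. Sema3g is drawn as a bound with an arrow, and no gene passed the test.

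Across the family 12 genes had a fitted change above 0, against 48.7% of tested genes, and 19 below. An adjusted p under 0.05 was reached by 0 of 31 in edgeR, and by 0% of the 16517 tested genes, the targeted Robo1 and Robo2 included. At an unadjusted p under 0.05 in edgeR there was 1 of 31, Sema3g, against 6.21% of tested genes (1.99% higher and 4.21% lower in the mutant). DESeq2 also called 0 of the 31, against 0.914% of tested genes. All 31 genes met the minimum of 10 counts in 2 libraries. The median log2 change of the 31 was -0.14, the same with Sema3g at its bound, and -0.01 over all tested genes. The genotypes did not overlap in 10 of 31 genes, 4 with the mutants above and 6 with the mutants below, against 36.6% of tested genes (16.1% above and 20.4% below). These shares are near the background. The summed level of the 20 semaphorins was 201 and 146 CPM in the controls and 134 and 174 CPM in the mutants, and that of the 9 plexins 497 and 508 CPM against 473 and 519 CPM.

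Differences between libraries of 1 genotype were larger, at the median, for members with a mean between 1 and 100 CPM than for tested genes of like level, which is a description with no test. For the 15 members with a mean between 1 and 10 CPM, the median absolute difference of log2(CPM + 1) was 0.84 between the controls and 1.13 between the mutants, against 0.35 and 0.63 over the 4598 tested genes in that range. Between the genotype means it was 0.44 for the members and 0.37 for those tested genes. For the 9 members between 10 and 100 CPM it was 0.46 between the controls and 0.52 between the mutants, and 0.18 and 0.32 over 7349 tested genes. Between the genotype means it was 0.43 for these members and 0.19 for those tested genes. For the 6 members under 1 CPM it was 0.15 between the controls, below the 0.27 of 2900 tested genes, and 1.14 between the mutants, above their 0.39. Here the genotype means differed by 0.23 for the members and 0.24 for the tested genes. The 95% interval of the log2 change lay within -1 to 1 for only 2 members, Plxnb2 and Sema4d. For the others it reached past a 2-fold change in at least 1 direction, so for them these libraries do not show that a change of that size is absent.

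**Figure D4:**
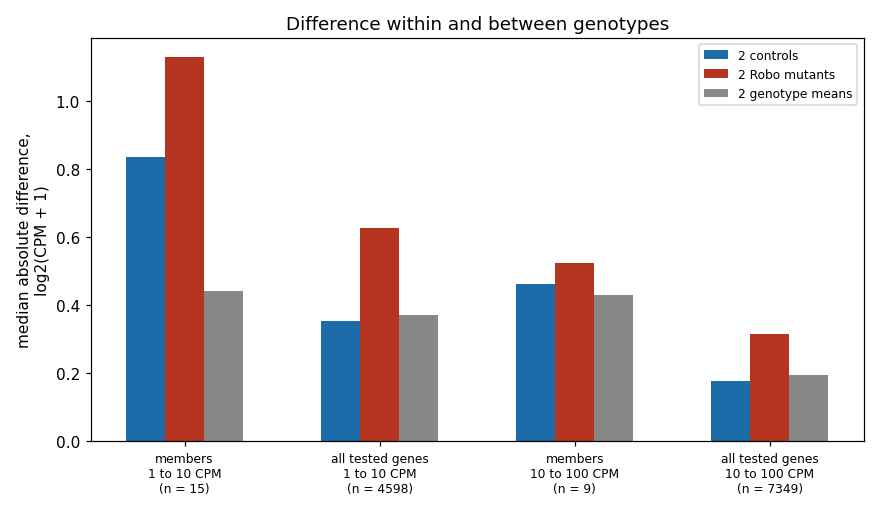
Median absolute difference of log2(CPM + 1) between the 2 controls, between the 2 Robo mutants and between the genotype means, for members and for all tested genes in 2 ranges of mean CPM. The members' bars for libraries of 1 genotype stand above those of tested genes in both ranges drawn.

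Other genes of semaphorin signalling, among them cytoplasmic effectors, co-receptors and regulators, were divided between directions. Of 65 listed genes that were found, 60 were tested, 30 with a fitted change above 0 and 30 below, with a median log2 change of -0.000983, and 0 passed in edgeR. At an unadjusted p under 0.05 there were 2 of 60, 1 in each direction, against 6.21% of tested genes (1.99% higher and 4.21% lower). Cfl1, the gene of the actin-severing protein cofilin on which the LIM kinase branch of the pathway ends, was at 301 and 254 CPM in the controls and at 383 and 427 CPM in the mutants. Both mutant libraries lay above both controls, with a log2 change of 0.55 (SE 0.16), an adjusted p of 0.680 in edgeR and 0.0323 in DESeq2, the only 1 of the 60 that DESeq2 called, against 0.914% of tested genes. Micall1, a relative of the MICAL enzyme genes with a role in membrane recycling, was at 19.1 and 18.7 CPM against 12.2 and 10.2 CPM, a log2 change of -0.76 (SE 0.25, adjusted p = 0.750 in edgeR).

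Small p also belonged to 2 scarce genes and a more abundant one. Cd72, the gene of a Sema4d-binding receptor of B cells, was at 1.06 and 1.35 CPM in the controls and at 3.48 and 3.30 CPM in the mutants. Fes, a tyrosine kinase gene of the Sema3a pathway, was at 0.564 and 1.08 CPM against 2.96 and 2.64 CPM. Farp1, a gene of the FERM-domain exchange factors, was lower at 55.4 and 43.5 CPM against 37.9 and 38.1 CPM. None of these 3 passed, with adjusted p from 0.877 to 0.897 in edgeR. The class B plexin effectors Arhgef11 and Arhgef12 had log2 changes of -0.28 and -0.22. Receptor genes that pair with neuropilins or VEGF in endothelium, Flt1, Kdr and Flt4, did not reach the minimum for the test.

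**Figure D5:**
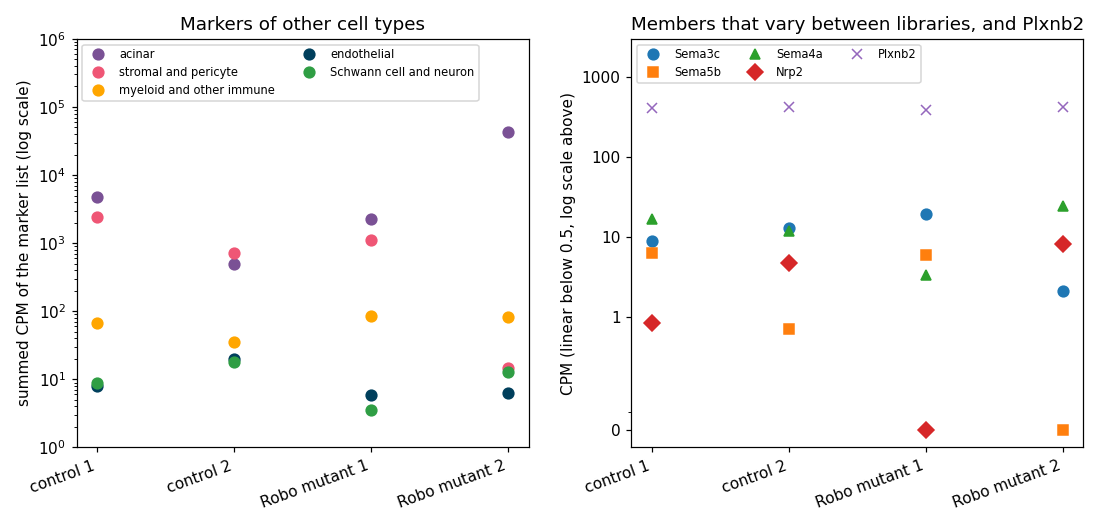
Left, summed CPM of marker lists of other cell types in each library on a log axis. Right, CPM of 4 members that vary between libraries, and of Plxnb2. Acinar markers reach 43116 CPM and stromal markers 14.7 CPM in Robo mutant 2, in which Sema5b is at 0, and Plxnb2 stays between 388 and 426 CPM.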

How the data were processed

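The submitters' processing notes name build GRCm38, RSEM 1.3.0, STAR 2.5.3a, edgeR 3.16.5 and bcl2fastq 2.20.0.422. What each did, and the annotation release, is not given in the sources used here. Libraries were made with SMART-Seq v4 and Nextera XT, per the labels' protocols, a chemistry that carries no strand information. The deposited values are RSEM's gene-level expected counts in whole numbers. The table is called normalized, but its column totals differ, so they were taken as estimated counts. If the authors rescaled them beforehand, the totals are not the depth.

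Counts were rounded (they were already whole), genes under 10 counts in more than 2 of 4 libraries were dropped, TMM factors were computed, and Robo mutant was tested against control, two-sided, with edgeR 4.0.16 (glmQLFit, glmQLFTest) in R 4.3.3, adjusted by Benjamini-Hochberg over all 16517 genes at a threshold of 0.05. Standard errors were taken as the log2 change over the root of the F statistic. DESeq2 1.42.0 and limma 3.58.1 on log2(CPM + 1), a pseudocount of 1, were alternatives. The fit was checked on simulated data. Exon lengths and positions came from GENCODE M21 (GRCm38), which matched 51633 of the 51912 identifiers. In 7 members an exon overlaps another annotated gene, each at a mean of under 0.1 CPM, and 0 of 31 had a near-identical copy (95% identity over 50% of the longest transcript, BLAST).

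Members and lists were chosen with earlier results of these data known. Values in every library are given for members with an unadjusted p under 0.05 or non-overlapping genotypes at a mean of at least 1 CPM, the 2 highest per kilobase of each family, others that vary widely, chosen after their values were seen, and the 6 other signalling genes of smallest p, of which 1 is not reported here. Control and mutant replicates are numbered in accession order.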

Additional observations from a re-analysis of the deposited data

How the results depend on the processing

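The alternatives were RLE factors, no minimum count, a minimum of 50 counts in 2 libraries, DESeq2, limma on log2(CPM + 1) and leaving out each library in turn. Over the whole table the number of genes called in edgeR was 0 with all libraries, 0 to 1 when 1 library was left out and 0 under the other edgeR and limma settings, while DESeq2 called 151. The 1 gene, called without Robo mutant 2, was Gm8797, no member, named after its values were seen. Of the members each alternative tested, 0 were called. Unadjusted p under 0.05 held for 0 to 2 members, but for 8 without Robo mutant 1 and 10 without Robo mutant 2, settings in which 3038 and 2769 genes of the whole table had such a p against 1025 with all libraries. Other signalling genes called were 0, and 1 in DESeq2. The members' median log2 change of -0.14 ranged from -0.32 without Robo mutant 2 to 0.028 without control 1. The sign was the same for 15 of 31 members in every alternative that tested them, and some scarce members, such as Sema3g, Sema7a, Plxna4 and Sema4f, dropped below the minimum count in 1 or more alternatives. Nrp2 turned to -0.089 with limma. The other turns came from leaving out 1 library, with log2 changes over such settings of Nrp1 (-0.21 to 0.22), Nrp2 (-9.99 to 2.30), Plxna1 (-1.12 to 0.19), Plxnb2 (-0.091 to 0.043), Plxnb3 (-8.40 to 0.86), Sema3a (-7.55 to 2.04), Sema3c (-2.38 to 0.83), Sema3d (-5.35 to 2.09), Sema3f (-0.52 to 1.37), Sema4a (-2.10 to 0.80), Sema4d (-0.53 to 0.028), Sema4g (-2.99 to 0.75), Sema5b (-10.28 to 2.04), Sema6b (-1.43 to 1.78), Sema6c (-0.82 to 0.83), Sema6d (-0.69 to 0.15). With 3 libraries the lone library of a genotype is assumed to vary like the others. At least 50 counts in 2 libraries left 24 members. No paired analysis was possible because the labels give no replicate numbers that the genotypes share.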

Other observations

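Some members were present in 1 library and at 0 in another. Of the 31 genes, 6 had 0 counts in at least 1 library and at least 50 counts in another, against 7.67% of all tested genes. These were Sema3a, Sema4f, Sema5b, Plxna4, Plxnb3 and Nrp2, named after their values were seen, and all have a mean under 10 CPM. Among the tested genes with a mean under 10 CPM the share was 16.5%, and 6 of 21 members in that range showed it. Counts of 0 fell mostly in the mutant libraries. Robo mutant 1 had 5 members at 0 and Robo mutant 2 had 4, against 1 in each control, and over all tested genes 7.08% and 6.38% were at 0 in the mutants against 1.86% and 0.999% in the controls. The members at 0 differed between the mutants, apart from Sema3g.

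Levels of ligand and receptor genes known to pair can be set side by side per kilobase of exon, as means of the 4 libraries. Sema4c and its receptor gene Plxnb2 were at 3.28 and 53.2 CPM per kilobase, and the Sema4d receptor gene Plxnb1 was at 3.73 beside 5.0 for Sema4d. Sema3a and Nrp1 were at 0.0578 and 0.794, and Sema7a and Plxnc1 at 0.0950 and 0.255. Itgb1, the gene of the integrin chain that also binds Sema7a, was at 341 and 328 CPM in the controls and 314 and 344 CPM in the mutants. Whether receptor and ligand meet on the same cells is not measured in bulk RNA.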
